A study of Mus musculus with 2 samples.

Results

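The genes described here are 8 members of the transcriptional response to low oxygen: Vegfa, Hilpda, Bnip3, Egln3, Adm, Ndrg1, Slc2a1 and Ankrd37. They were chosen by symbol, and all 8 were found among the 31253 genes of the deposited tables. Their raw counts of unique molecular identifiers (UMIs, 1 per captured RNA molecule) were read in 2 single-cell libraries of immune cells sorted alive from mouse gliomas as CD45.2+ CD45.1- cells, which the labels call endogenous. Libraries came from the BD Rhapsody system, which pairs single cells with barcoded beads in microwells. The PBS library came from tumours treated with PBS (phosphate-buffered saline). The EM library came from tumours treated with EM, an abbreviation the labels do not spell out, and its title gives 72 h, whereas no time is given for PBS. Strain, age and the number of animals per library are not stated. The series title concerns adoptively transferred macrophages, and the comparison addressed here is that of endogenous immune cells after EM with those after PBS.

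Cells respond to falling oxygen through the hypoxia-inducible factors. Their alpha subunits are hydroxylated by prolyl hydroxylases of the Egln family while oxygen is present, bound by the Vhl protein and degraded. When oxygen is short, alpha subunits persist, pair with Arnt and bind DNA at short hypoxia response elements built on the core ACGTG or GCGTG. In tumours, macrophages of poorly perfused regions are a known source of vascular growth factors. Vegfa encodes the main vascular endothelial growth factor and Adm the vasodilator peptide adrenomedullin. Egln3 encodes an oxygen-sensing prolyl hydroxylase that is itself induced by the factors. Slc2a1 encodes the glucose transporter GLUT1. Hilpda encodes a lipid droplet protein that inhibits the triglyceride lipase Pnpla2. Bnip3 encodes a mitochondrial outer membrane protein that directs mitochondria to autophagy. Ndrg1 encodes a cytoplasmic stress-responsive protein, and Ankrd37 a small ankyrin repeat protein.

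All 8 are protein-coding genes, placed here by gene identifier on GRCm38, the assembly also called mm10. Vegfa lies at chr17:46016993-46032369 on the minus strand and Hilpda at chr6:29272488-29275446 on the plus strand. Bnip3 (chr7:138890836-138909519, minus strand) and Adm (chr7:110627661-110629820, plus strand) share a chromosome. Egln3 lies at chr12:54178981-54203860 (minus strand), Ndrg1 at chr15:66929318-66969640 (minus strand), Slc2a1 at chr4:119108711-119137983 (plus strand) and Ankrd37 at chr8:45996902-46005707 (minus strand).

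Promoter windows of 300 bases, from 250 before to 50 after a RefSeq start site on GRCm38.p6, were found for 7 of the 8 members, all but Ndrg1. Both cores were searched on both strands, and a match to ACGTG can overlap its own reverse complement in CACGTG. Windows of 6 members held ACGTG and windows of 6 held GCGTG. Vegfa and Hilpda had 2 windows each, and a member counted if either matched, whereas the shares that follow are per single window. Among all 32851 windows of the same length, 19.6% held ACGTG, 32.4% held GCGTG and 43.8% held either. Member windows were 50.7 to 71.7% G and C against a median of 52.7% over all windows. A match is a description of letters, not a binding site. The 6 windows below are shown because the results below turn on these members. Capitals mark both cores on either strand.
Bnip3, chr7:138909457-138909756, minus strand: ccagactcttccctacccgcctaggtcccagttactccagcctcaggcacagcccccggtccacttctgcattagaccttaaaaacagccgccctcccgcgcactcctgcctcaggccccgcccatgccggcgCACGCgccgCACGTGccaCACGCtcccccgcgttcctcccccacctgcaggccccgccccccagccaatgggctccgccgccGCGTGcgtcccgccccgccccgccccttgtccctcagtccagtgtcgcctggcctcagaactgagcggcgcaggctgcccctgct
Ankrd37, chr8:45999801-46000100, minus strand: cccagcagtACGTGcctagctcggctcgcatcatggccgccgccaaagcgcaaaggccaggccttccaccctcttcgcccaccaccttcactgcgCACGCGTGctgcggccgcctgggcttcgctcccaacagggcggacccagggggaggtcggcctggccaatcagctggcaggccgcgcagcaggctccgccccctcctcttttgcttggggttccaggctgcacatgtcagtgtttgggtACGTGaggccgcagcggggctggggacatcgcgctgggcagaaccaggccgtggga
Slc2a1, chr4:119108495-119108794, plus strand: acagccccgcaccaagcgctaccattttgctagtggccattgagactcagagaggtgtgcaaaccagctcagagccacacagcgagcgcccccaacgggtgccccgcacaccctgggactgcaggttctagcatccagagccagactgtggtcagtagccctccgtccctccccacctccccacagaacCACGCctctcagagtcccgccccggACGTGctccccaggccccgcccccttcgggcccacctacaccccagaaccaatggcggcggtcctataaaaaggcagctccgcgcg
Hilpda, chr6:29272376-29272675, plus strand: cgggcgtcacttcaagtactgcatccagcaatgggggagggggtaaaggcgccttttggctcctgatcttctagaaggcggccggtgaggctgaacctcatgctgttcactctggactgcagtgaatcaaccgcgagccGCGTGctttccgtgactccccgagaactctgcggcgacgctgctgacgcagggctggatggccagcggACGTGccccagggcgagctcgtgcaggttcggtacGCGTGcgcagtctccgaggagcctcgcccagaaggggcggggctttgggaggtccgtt
Egln3, chr12:54203825-54204124, minus strand: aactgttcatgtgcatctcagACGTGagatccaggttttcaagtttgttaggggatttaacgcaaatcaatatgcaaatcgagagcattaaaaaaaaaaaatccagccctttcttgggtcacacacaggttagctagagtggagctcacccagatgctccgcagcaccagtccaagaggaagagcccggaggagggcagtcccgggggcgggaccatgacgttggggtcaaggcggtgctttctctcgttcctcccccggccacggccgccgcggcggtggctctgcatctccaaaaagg
Vegfa, chr17:46032328-46032627, minus strand: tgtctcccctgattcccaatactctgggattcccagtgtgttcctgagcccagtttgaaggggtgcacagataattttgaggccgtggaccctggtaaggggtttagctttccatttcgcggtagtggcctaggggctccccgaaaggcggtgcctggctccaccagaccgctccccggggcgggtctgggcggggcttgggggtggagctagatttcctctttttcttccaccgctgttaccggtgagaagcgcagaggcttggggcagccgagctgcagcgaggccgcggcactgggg
The Bnip3 window held 2 overlapping ACGTG matches, 107 and 108 bases before the start, and 3 GCGTG matches. Ankrd37 held 2 of each, the nearest an ACGTG 6 bases before the start. Slc2a1 held an ACGTG 36 bases before the start. The second Hilpda start site had an ACGTG 43 bases before it, and its first start site a single GCGTG. Egln3 held a single ACGTG, 229 bases upstream. The window of the first Vegfa start site held neither core, while that of a downstream start site, within the gene, held 1 of each.

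The libraries stood apart before any gene of the response was read. The PBS library held 8333 barcodes and 45043934 UMIs, and the EM library had 8039 barcodes and 19385631 UMIs. After a filter on genes, UMIs and mitochondrial share, 7756 PBS cells (median 4303 UMIs) and 7967 EM cells (median 2016 UMIs) were kept, and the libraries shared 66 cell barcodes. Xist, the X-inactivation RNA, stood at 10.6 CPM (UMIs scaled to a total of 1000000) in PBS against 384 CPM in EM, while Ddx3y of the Y chromosome stood at 192 and 4.46 CPM. With 1 library per group there was no replicate and no test, so differences between EM and PBS cannot be told apart from differences between these 2 libraries. Intervals below are exact 95% intervals and cover counting error only.

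Classes are cells that passed a gate on marker genes, and their names mean macrophage-like, T-like and so on. The gate took 88.6% of PBS cells and 92.6% of EM cells. It gave 1658 PBS and 758 EM macrophages, 144 and 160 microglia, 52 and 211 dendritic cells, 4122 and 5276 T cells, 227 and 490 NK cells, and 54 and 104 B cells. Neutrophils (562 cells) were gated only in PBS. Plasmacytoid dendritic cells (191) and basophils (165) reached 50 cells only in EM. The depth of the macrophages differed widely, at a median of 8899 UMIs in PBS and 1007.5 in EM. Clustering split this class largely by library and placed 1321 of the PBS macrophages in a cluster that held no EM macrophage. The EM macrophages fell mostly into 3 other clusters, of 378, 195 and 147 cells, the first of which also held 162 PBS macrophages. Both libraries were clustered together without correction for library. Different groups of cells thus cannot be told apart here from effects of library or depth. Summed T cell markers in gated macrophages were 1.10% of their T cell level in PBS and 2.69% in EM. Microglial markers were at 204 and 679 CPM, or 8.96% and 10.2% of their microglial level. Summed tumour or neural markers were at 7.30 CPM in PBS macrophages and 1.65 CPM in EM, where Sox2, Olig1, Olig2 and Ptprz1 had no UMI. Endothelial markers were at 116 and 45.3 CPM, but their sum includes Pecam1, the only one of them found in EM NK cells, at 204 CPM. Neutrophil markers were at 684 CPM, or 1.82% of their neutrophil level, in PBS macrophages and at 163 CPM in EM, where Camp, Lcn2, Ly6g, Ngp and S100a9 had no UMI. The part of these markers in the results was not tested.

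In macrophages, 6 of the 7 members with enough counts were at least 2-fold lower in EM than in PBS, against 18.5% of the 11519 genes measured there. A member counted as measured with at least 20 UMIs over both libraries. The median log2 ratio of the 7 members was -1.53, and that of all genes measured -0.22. All 7 lay below equality, and no interval of theirs included it. Hilpda and Vegfa had the lowest ratios and Ndrg1 the highest. No member was at least 2-fold higher in EM (8.33% of genes were).

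For the secreted factor Vegfa, PBS macrophages had 4792 Vegfa UMIs, or 309 CPM (301 to 318), and EM macrophages 41 UMIs, or 33.8 CPM (24.2 to 45.8). The level was 9.17-fold lower in EM, a log2 ratio of -3.20 (-3.68 to -2.75). Macrophages held 76.3% of all Vegfa UMIs of the PBS library and 15.1% of those of the EM library. In EM, T cells and NK cells each held 26.6%. Within the PBS macrophages expression was skewed: the 10% of cells with the most Vegfa UMIs held 54.4% of them.

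Hilpda, the lipid droplet gene, had the ratio furthest from equality. It stood at 198 CPM (191 to 205) in PBS macrophages, from 3063 UMIs, and at 13.2 CPM (7.53 to 21.4) in EM, from 16 UMIs. This was 15.01-fold lower in EM, a log2 ratio of -3.91 (-4.72 to -3.21). For Hilpda, T cells were a second main source, with 42.6% of the PBS UMIs and 75.2% of the EM UMIs.

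Egln3, the induced oxygen sensor, was at 64.6 CPM (60.7 to 68.8) in PBS macrophages and 9.88 CPM (5.11 to 17.3) in EM, a log2 ratio of -2.71 (-3.67 to -1.90). Bnip3 was at 193 CPM (186 to 200) in PBS and 66.7 CPM (53.0 to 82.9) in EM, a ratio of -1.53 (-1.87 to -1.22). Slc2a1 was at 153 CPM (147 to 160) in PBS and 61.8 CPM (48.6 to 77.4) in EM, a ratio of -1.31 (-1.66 to -0.98). The mitophagy and glucose transport genes thus kept a larger share of their PBS level than Vegfa, Hilpda and Egln3. Ankrd37 was at 28.0 CPM (25.4 to 30.7) in PBS and 12.4 CPM (6.91 to 20.4) in EM, a ratio of -1.18 (-2.03 to -0.44).

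With all gated cells counted, Ndrg1 was the member nearest to equality in macrophages, at 42.9 CPM (39.7 to 46.3) in PBS and 27.2 CPM (18.7 to 38.2) in EM. Its log2 ratio was -0.66 (-1.21 to -0.16), and this value depended on which cells were counted. It was -2.21 in thinned cells, -1.82 with clusters as classes and -1.75 with equal weight per cell, and -0.29 with the stricter cell filter. In thinned cells Slc2a1, at -1.05, was nearer to equality. Adm was close to undetected, with 9 UMIs in PBS macrophages and 0 in EM. Its PBS level of 0.58 CPM lay under the 2.47 CPM that 3 counts would give in the EM macrophages, so no fold is given. In all cells kept, Adm had 15 UMIs in PBS and 8 in EM.

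**Figure D1:**
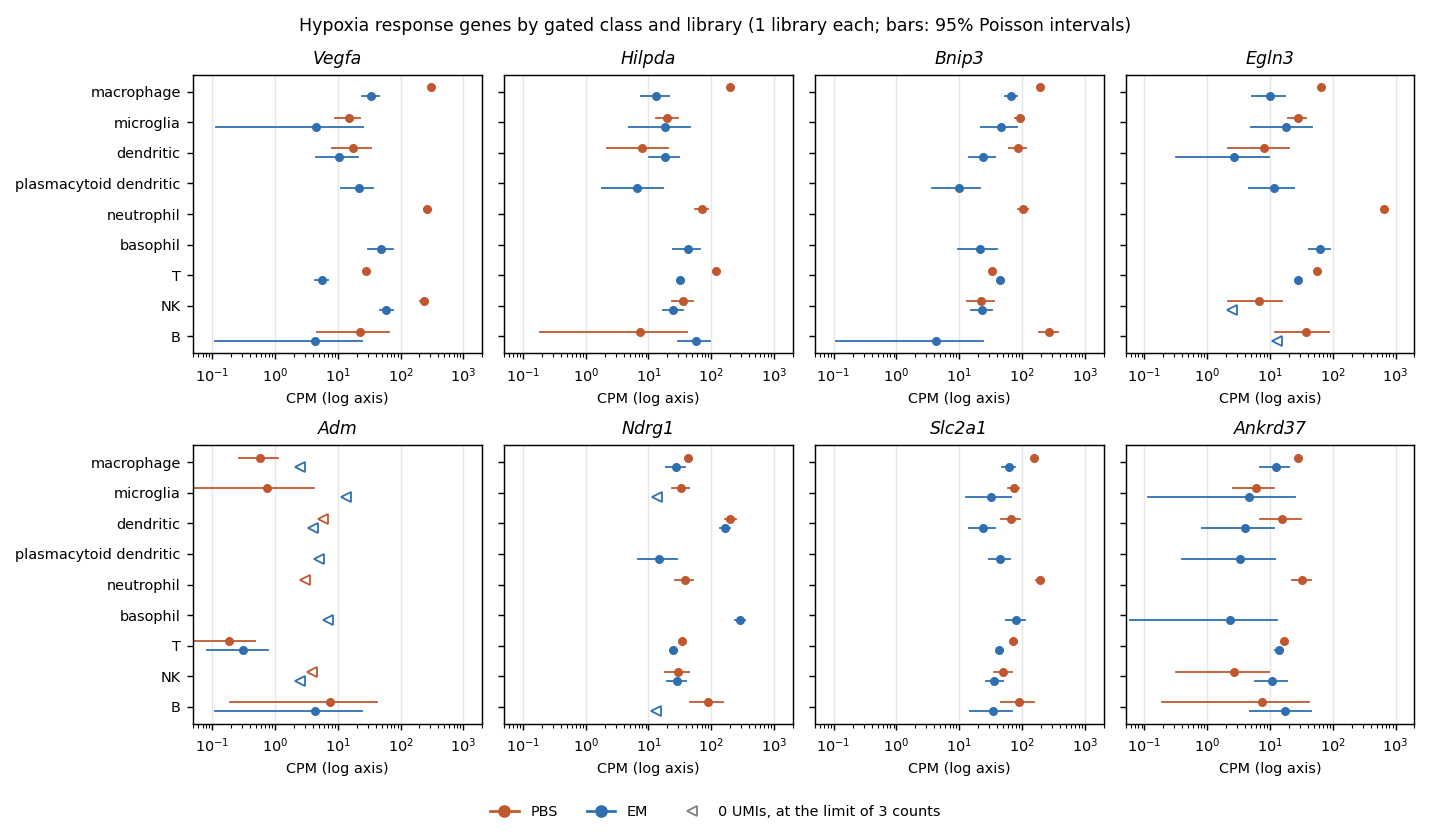
Level of each member (CPM, log axis) in each gated class of the PBS library (red) and the EM library (blue), 1 library each, with 95% Poisson intervals; open triangles mark classes with 0 UMIs at the limit of 3 counts. Vegfa is at 309 CPM in PBS macrophages and 33.8 CPM in EM macrophages, and Egln3 is highest in PBS neutrophils, at 657 CPM.

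At equal depth the shares of positive cells were also lower in EM for the 7 members. Each cell was thinned to 1000 UMIs, which left out 73 PBS and 376 EM macrophages that were shallower. Vegfa was found in 18.2% (16.4 to 20.2%) of thinned PBS macrophages and 2.36% (1.08 to 4.43%) of thinned EM macrophages; unthinned, the shares were 47.6% and 2.37%. Hilpda was found in 14.2% (12.5 to 16.0%) and 0.785% (0.162 to 2.28%) of thinned cells. For Bnip3 the thinned shares were 15.6% (13.9 to 17.5%) and 6.28% (4.07 to 9.20%), and for Slc2a1 12.5% (10.9 to 14.2%) and 6.54% (4.28 to 9.51%). Intervals of the 2 libraries did not overlap for 6 members, and overlapped for Ankrd37 (2.84%, 2.08 to 3.78%, and 0.785%, 0.162 to 2.28%). Ndrg1 was found in 3.97% (3.07 to 5.06%) and 0.785% of thinned cells, although its CPM ratio was the nearest to equality. For comparison, PBS microglia were about as deep as the PBS macrophages (median 8470 UMIs). Thinned, they held Vegfa in 0.699% (a single cell) and Hilpda in 0 of 143 cells, which allows up to 2.10%. PBS microglia also held Bnip3 (91.4 CPM) and Slc2a1 (73.6 CPM), so they are not a blank for background RNA.

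**Figure D2:**
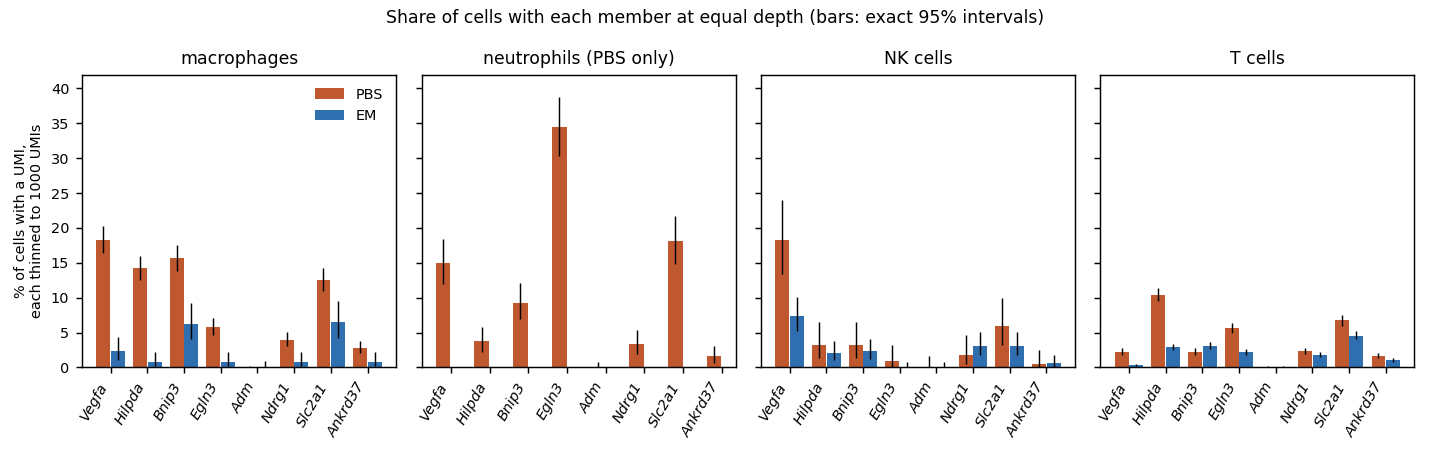
Share of cells with at least 1 UMI of each member after thinning every cell to 1000 UMIs, in 4 classes, with exact 95% intervals; neutrophils were gated in PBS only. In macrophages the PBS bar is above the EM bar for the 7 members detected, and Egln3 in neutrophils is the highest bar, at 34.5%.

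The 2 libraries could be set side by side within the single cluster that held at least 100 macrophages of each (162 PBS cells, median 1582 UMIs, and 378 EM cells, median 854 UMIs). There Vegfa had 36 UMIs in PBS and 1 in EM, a log2 ratio of -5.14 (-10.48 to -2.57), and Hilpda 31 and 1, a ratio of -4.93 (-10.27 to -2.34). Slc2a1 was at 100.3 CPM in PBS against 35.8 CPM in EM, a ratio of -1.49 (-2.48 to -0.58). Bnip3 was closer, at 206 CPM (164 to 255) and 120.2 CPM (88.3 to 160), a ratio of -0.77 (-1.32 to -0.24). Of the 4 members with 20 UMIs there, 3 were at least 2-fold lower in EM, and 10.7% of the 5014 genes measured were. The largest PBS cluster, with 1321 cells and a median of 10330 UMIs, had Vegfa at 329 CPM (320 to 339) against 90.3 CPM (63.2 to 125) in the shared cluster, so Vegfa also differed among the PBS macrophages. Bnip3 did not show that contrast, at 200.4 CPM (193 to 208) and 206 CPM. In EM, 39 of the 41 macrophage Vegfa UMIs lay in the cluster of 147 cells (median 3259 UMIs), at 78.6 CPM (55.9 to 107), whereas Bnip3 was lower there, at 36.3 CPM (21.5 to 57.3), than in the cluster of 378 cells. In EM the 2 genes thus had their highest levels in different clusters.

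Macrophages were also split by single genes of known states: Arg1, the arginase of alternatively activated macrophages, and Ly6c2, a marker of recently arrived monocytes. Such a split reads detection, so deep cells fall more often on the positive side. In PBS, macrophages with an Arg1 UMI (1050 cells) had Vegfa at 371 CPM (360 to 383) and those without (608 cells) at 135 CPM (124 to 146). Hilpda was at 235 and 92.9 CPM and Bnip3 at 218 and 123 CPM, while Slc2a1 (157 and 143 CPM) and Ankrd37 (28.1 and 27.7 CPM) had overlapping intervals. With cells thinned to 1000 UMIs before the split, Vegfa was found in 24.4% (21.1 to 27.9%) of cells with Arg1 and 14.1% (11.95 to 16.5%) of those without. Splitting by Mrc1, the mannose receptor, gave another order: Ndrg1 was at 30.6 CPM (27.7 to 33.8) in PBS macrophages with Mrc1 and 107 CPM (94.5 to 121) in those without, and Egln3 at 55.1 and 114 CPM. In EM the 83 cells with Mrc1 held 0 of the 41 Vegfa UMIs. Members at least 2-fold lower in EM were 4 of 7 with Mrc1 (17% of genes) and 7 of 7 without (16.8%). Of the 4 with Mrc1, Ndrg1 (2 EM UMIs, -4.19 to 0.73) had an interval that included equality.

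The EM library had 81 macrophages with an Arg1 UMI. In these, Bnip3 stood at 223 CPM (147 to 324), from 27 UMIs, and in the corresponding PBS cells at 218 CPM (210 to 227), a log2 ratio of 0.03 (-0.58 to 0.57). In EM macrophages without Arg1, Bnip3 was at 49.4 CPM (37.1 to 64.5). Vegfa in the Arg1-positive EM cells had 6 UMIs and was at 49.5 CPM (18.1 to 108), a ratio of -2.91 (-4.36 to -1.79) to PBS. After thinning, 9 of 26 Arg1-positive EM cells held Bnip3 and 0 held Vegfa. Among Arg1-positive cells the Bnip3 intervals of the libraries overlapped and the Vegfa intervals did not. Members at least 2-fold lower in EM were 4 of 7 with Arg1 (17.2% of all genes measured) and 6 of 7 without (19.4%). Of the 4 with Arg1, Egln3 (4 EM UMIs, -2.96 to 0.28) and Ndrg1 (2 EM UMIs, -4.38 to 0.53) had intervals that included equality.

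The split by Ly6c2 divided the EM macrophages by Vegfa. The 224 EM cells with a Ly6c2 UMI held 39 of the 41 Vegfa UMIs, at 62.3 CPM (44.3 to 85.1). The 534 EM cells without it held 2, at 3.403 CPM (0.412 to 12.3). After thinning, Vegfa was found in 5.49% (2.54 to 10.2%) of the former and 0 of 218 of the latter, which allows up to 1.38%. In PBS, Vegfa was at 284 CPM (266 to 303) with Ly6c2 and 316 CPM (306 to 326) without. Bnip3 in EM went the other way, at 36.7 CPM (23.3 to 55.1) with Ly6c2 and 98.7 CPM (74.9 to 128) without. All 7 measured members were at least 2-fold lower in EM among Ly6c2-positive macrophages (22.3% of genes), and 5 of 7 among Ly6c2-negative ones (20.2%).

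**Figure D3:**
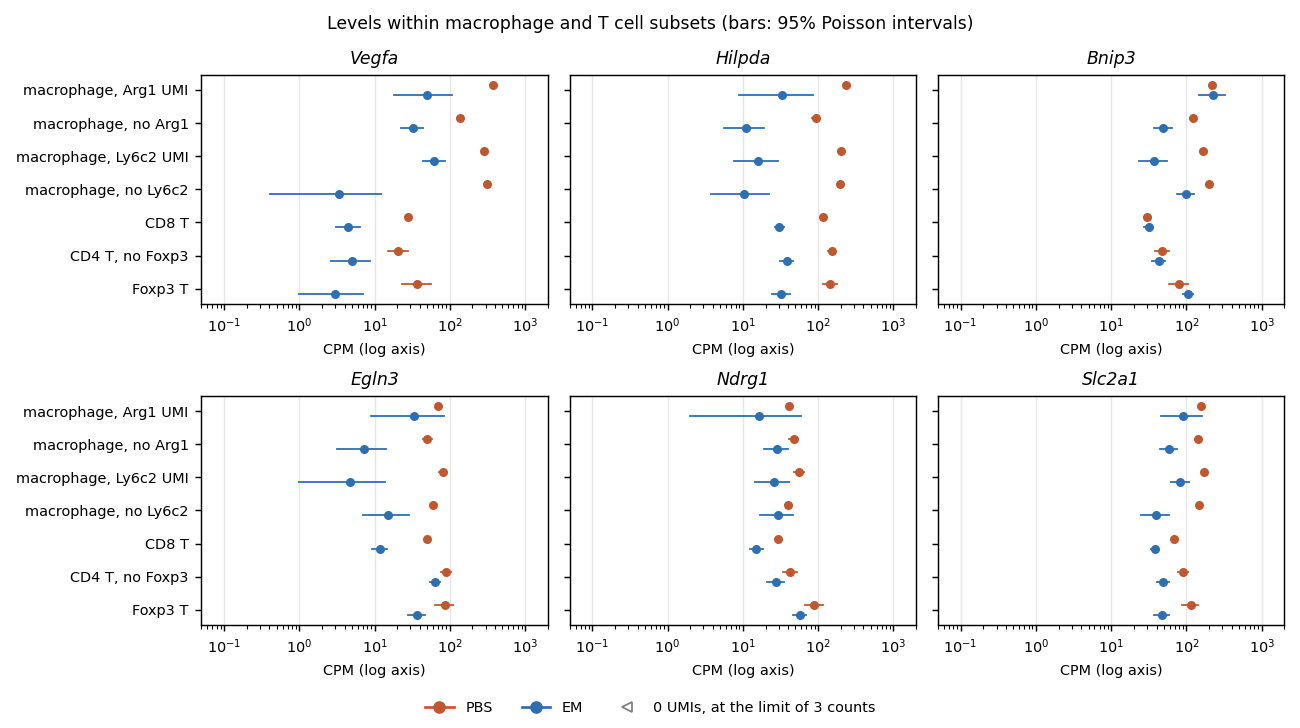
Level of 6 members (CPM, log axis) in macrophages split by detection of Arg1 or Ly6c2 and in T cell subsets, PBS in red and EM in blue, with 95% Poisson intervals. Bnip3 overlaps between the libraries in Arg1-positive macrophages (218 and 223 CPM), and Vegfa in EM macrophages without Ly6c2 is at 3.403 CPM.

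Neutrophils, short-lived granulocytes gated in PBS alone, had the highest level of Egln3 of any class, at 657 CPM (607 to 709) from 648 UMIs. This was above the 64.6 CPM of PBS macrophages and the 55.9 CPM of PBS T cells. After thinning, 34.5% (30.4 to 38.8%) of neutrophils held Egln3, against 5.80% (4.70 to 7.07%) of macrophages. Slc2a1 was at 196 CPM (169 to 225) and Vegfa at 268 CPM (237 to 303), and the Vegfa interval overlapped that of PBS macrophages. Hilpda (70.9 CPM) and Bnip3 (104 CPM) were lower in neutrophils than in PBS macrophages. Neutrophils were shallow, at a median of 1660.5 UMIs. With no EM neutrophils gated, no ratio could be taken.

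T cells held UMIs of every member, and in PBS the 8 levels were below those of macrophages, for Adm with overlapping intervals. Vegfa was at 28.2 CPM (26.0 to 30.5) in PBS T cells and 5.54 CPM (4.33 to 6.98) in EM T cells, a log2 ratio of -2.35 (-2.72 to -1.99). Thinned, Vegfa was found in 2.23% (1.796 to 2.73%) of PBS and 0.332% (0.194 to 0.532%) of EM T cells. The 0.699% of PBS microglia given above was a single cell of 143, too few to set these shares against. The part of background RNA in the EM share was not tested. Summed macrophage markers in T cells were at 1.48% of their macrophage level in PBS and 1.84% in EM. Hilpda was at 120 CPM (115 to 125) in PBS and 31.9 CPM (28.9 to 35.2) in EM, a ratio of -1.91 (-2.06 to -1.76). Of the 7 measured members these 2 were at least 2-fold lower in EM, while 11.6% of all genes measured in T cells were. None was at least 2-fold higher (5.37% of genes). The T cells, too, clustered largely by library: one cluster held 1163 PBS and 17 EM T cells, another 906 and 60, and another 128 and 1856. Egln3 lay at the limit, at 55.9 CPM (52.8 to 59.2) and 28.1 CPM (25.3 to 31.1), a ratio of -0.99 (-1.17 to -0.82). Slc2a1 (-0.76), Ndrg1 (-0.49) and Ankrd37 (-0.27) had smaller ratios, with intervals below equality. Ankrd37 was the closest of these to equality, with an upper bound of -0.01.

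Of the 7 members, Bnip3 alone was higher in EM T cells, at 33.0 CPM (30.6 to 35.5) in PBS and 44.5 CPM (40.9 to 48.2) in EM, a log2 ratio of 0.43 (0.27 to 0.59). Subsets did not show a difference of that size in CD8 T cells, at 29.8 and 31.3 CPM (0.07, -0.16 to 0.30), or in CD4 T cells without Foxp3, at 47.6 and 43.3 CPM (-0.14, -0.55 to 0.28). T cells with a UMI of Foxp3, the regulatory T cell factor, were at 80.2 CPM (59.1 to 106) in PBS and 105 CPM (89.9 to 122) in EM, a ratio of 0.39 (-0.08 to 0.88). This subset, the highest of the 3 in both libraries, numbered 134 cells in PBS and 665 in EM. CD8 T cells numbered 3185 and 2717. The part of this mix in the T cell ratio was not tested.

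Egln3 had unlike ratios in the subsets. CD8 T cells had it at 50.6 CPM (47.3 to 54.0) in PBS and 11.7 CPM (9.29 to 14.5) in EM, a log2 ratio of -2.12 (-2.46 to -1.79). CD4 T cells without Foxp3 had it at 89.8 CPM (77.2 to 104) and 63.9 CPM (54.1 to 74.9), a ratio of -0.49 (-0.81 to -0.17). The Foxp3 subset lay between, at 85.2 and 36.8 CPM (-1.21, -1.77 to -0.65). Hilpda, in contrast, had like ratios in the 3 subsets, from -2.16 to -1.93. Members at least 2-fold lower in EM were 3 of 7 in CD8 T cells (13.4% of genes), 2 of 7 in CD4 T cells without Foxp3 (7.26%) and 4 of 7 in the Foxp3 subset (5.96%).

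In NK cells, cytotoxic innate lymphocytes, the member with the most UMIs was Vegfa, with 179 in PBS and 72 in EM. It was at 236 CPM (203 to 273) in PBS NK cells and 59.6 CPM (46.6 to 75.1) in EM, a log2 ratio of -1.99 (-2.40 to -1.58), and was the 1 member of 5 measured that was at least 2-fold lower (8.62% of genes were); none was higher by as much (5.59%). Thinned shares were 18.3% (13.4 to 24.0%) and 7.34% (5.16 to 10.1%). In EM, NK cells had the highest Vegfa level of the classes, with an interval that overlapped that of basophils (49.1 CPM, 30.4 to 75.1). Bnip3 (22.4 and 23.2 CPM), Ndrg1 (29.0 and 28.1 CPM), Hilpda (35.6 and 24.8 CPM) and Slc2a1 (50.1 and 36.4 CPM) had intervals of the ratio that included equality.

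**Figure D4:**
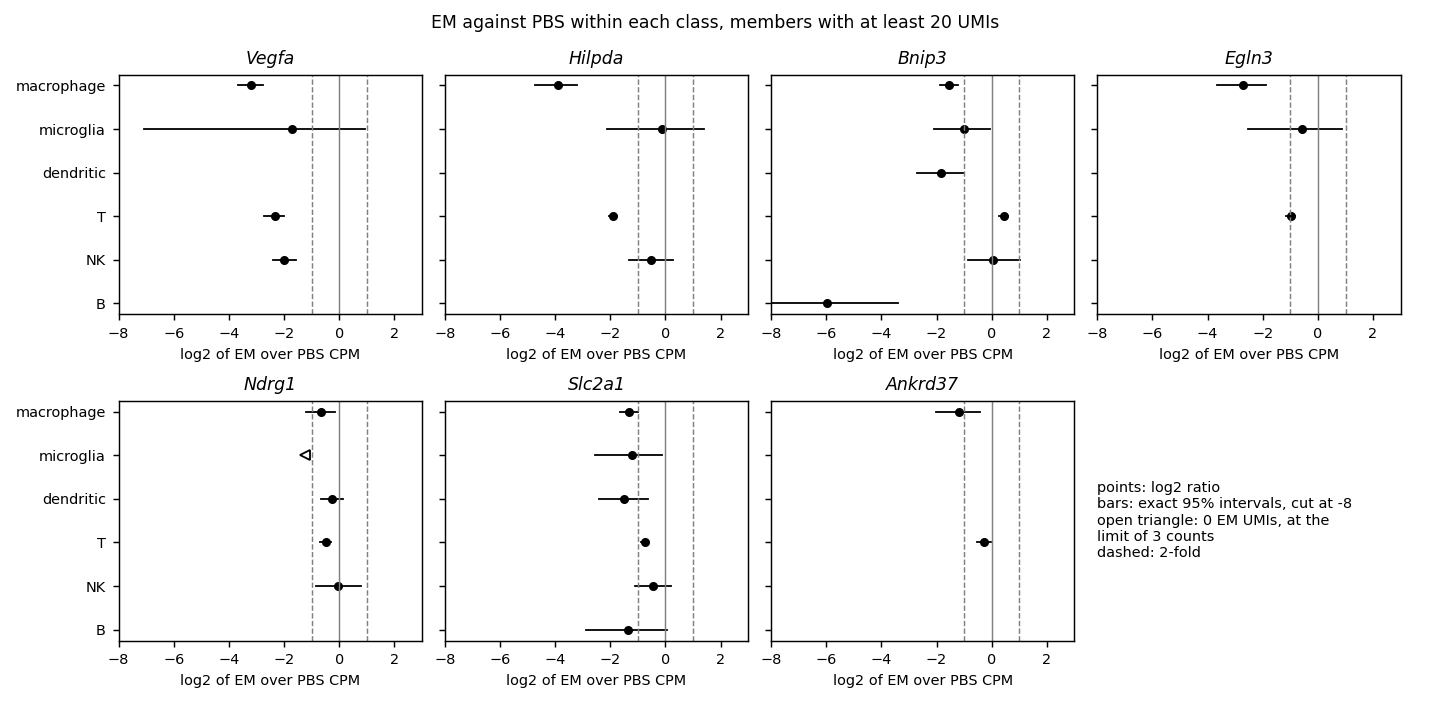
Log2 ratio of EM over PBS for each member with at least 20 UMIs in a class, with exact 95% intervals, solid lines at equality and dashed lines at 2-fold; the open triangle is a class with 0 EM UMIs. Macrophage points lie left of equality for the 7 members, and Bnip3 in T cells lies right of it, at 0.43.

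Among classes of at least 50 cells, dendritic cells had the highest Ndrg1 level in PBS, at 201 CPM (164 to 244), against 168 CPM (140 to 200) in EM, a log2 ratio of -0.26 (-0.65 to 0.13). Basophils, which only EM had in number, had Ndrg1 at 288 CPM (239 to 343), from 123 UMIs in 165 cells. Both levels were above the 42.9 CPM of PBS macrophages, so Ndrg1 did not follow the class order of Vegfa. Bnip3 in dendritic cells was at 84.8 CPM in PBS against 23.8 CPM in EM (-1.83, -2.72 to -1.01), and Slc2a1 at 67.0 and 23.8 CPM (-1.50, -2.41 to -0.63). These were 2 of 3 members measured, against 7.29% of genes, and none was at least 2-fold higher (8.68%).

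Microglia, the resident macrophages of the brain, had low counts. Clustering placed 91.7% of the PBS microglia in one cluster and 94.4% of the EM microglia in another, the one that held 195 EM macrophages. Of 6 members measured, 4 were at least 2-fold lower in EM, against 24% of genes, and none at least 2-fold higher (8.32%). Bnip3 was at 91.4 CPM in PBS against 45.6 CPM in EM (-1.005, -2.10 to -0.08), or -0.63 without the cell richest in it, which held 47 of the 123 PBS UMIs. Slc2a1 was at 73.6 and 31.9 CPM (-1.21, -2.56 to -0.11). Vegfa had 20 and 1 UMIs, a ratio of -1.71 whose interval (-7.08 to 0.94) included equality. Ndrg1, counted among the 4, had 44 UMIs in PBS, in 3 of 144 cells, and 0 in EM. With the EM class set at the limit of 3 counts, it was 2.39-fold lower. The upper bound of its log2 interval was -0.90, short of 2-fold. In B cells, 2 of 2 members measured were lower and none higher (13.9% and 8.86% of genes), but 35 of the 36 PBS Bnip3 UMIs came from 1 cell. Without the cell richest in the member in each class and library, member ratios at least 2-fold lower outside macrophages were 7 in place of 11.

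Over all cells kept, 5 of 8 members were at least 2-fold lower in EM, against 18% of 15247 genes, and none was higher by as much (6.37%). Vegfa was at 144 CPM in PBS against 14.0 CPM in EM (-3.36, -3.54 to -3.18), Hilpda at 138 and 28.6 CPM (-2.27) and Bnip3 at 98.4 and 39.6 CPM (-1.31). Such totals mix the level within classes with the share of each class: macrophages held 35.6% of PBS UMIs and 6.29% of EM UMIs. With the EM levels of the 6 classes of at least 50 cells in both libraries weighted by the PBS mix, Vegfa had a log2 ratio of -3.00 in place of -3.59 over the same classes. Hilpda went from -2.28 to -2.59 and Bnip3 from -1.20 to -0.92. The class mix thus moved Bnip3 across the 2-fold limit and left Vegfa and Hilpda beyond it.

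Within PBS macrophages cells with 1 member more often held a second than cells without it. At least 1 member was found in 47.6% (45.2 to 50.1%) of thinned PBS macrophages and at least 2 in 18.9% (17.0 to 20.9%). In EM macrophages these shares were 16.5% (12.9 to 20.6%) and 1.31% (0.426 to 3.03%). For each pair, the share with the second member was compared between cells with and without the first. The ratio was above 1 in all 21 pairs, with a median of 1.74, and in 12 pairs the 2 intervals did not overlap. Ndrg1 was found in 13.04% (6.93 to 21.7%) of PBS macrophages with Egln3 and in 3.42% (2.55 to 4.47%) of those without. Egln3 was found in 12.9% (8.80 to 18.0%) of cells with Hilpda and 4.63% (3.58 to 5.89%) of those without. Slc2a1 was less tied to Hilpda, at 14.2% and 12.2%, and the intervals overlapped.

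**Figure D5:**
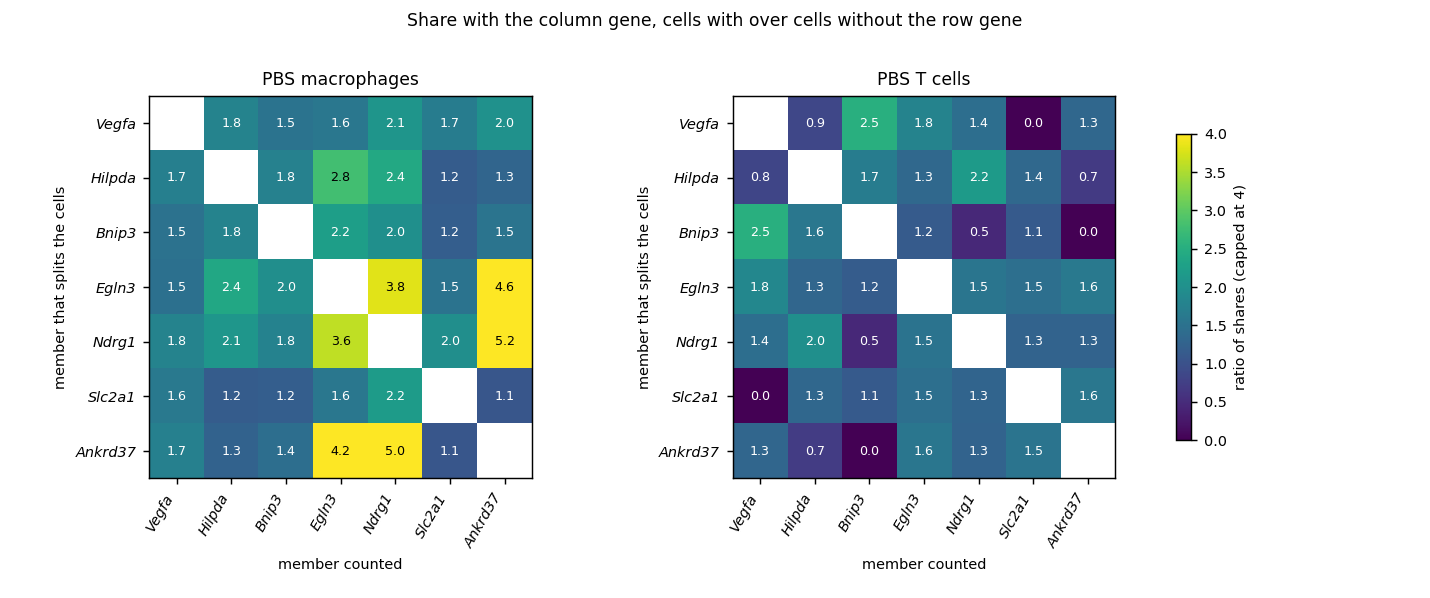
Ratio of the share of cells with the column gene, in cells with over cells without the row gene, in PBS macrophages (left) and PBS T cells (right) thinned to 1000 UMIs; Adm had too few UMIs to be drawn. Ratios in macrophages are all above 1, with the highest values among Egln3, Ndrg1 and Ankrd37.

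PBS T cells held fewer members per cell. At least 1 member was found in 26.9% (25.5 to 28.3%) and at least 2 in 4.04% (3.45 to 4.69%) of thinned cells. Of 21 pairs, 1 had a higher share with intervals apart and 1 a lower share. The higher pair was Hilpda and Ndrg1, at 4.52% (2.75 to 6.97%) of cells with Hilpda and 2.07% (1.63 to 2.59%) without. The lower pair was Vegfa and Slc2a1, as 0 of 90 T cells with Vegfa held Slc2a1, which allows up to 3.33%, against 6.91% of the others. In EM T cells 4 of 15 pairs had a higher share with intervals apart and none a lower share, with a median ratio of 1.57 against 1.33 in PBS T cells. Neutrophils had the largest share with at least 2 members, 22.3% (18.7 to 26.2%). Of their 6 pairs, 2 had a higher share with intervals apart and none a lower share, with a median ratio of 1.71. EM macrophages had 1 pair to compare, at 0.62 with overlapping intervals.

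The regulators of the response lay nearer to equality. Of 9 hypoxia-inducible factor subunits and regulators, 7 were measured in macrophages, 1 was at least 2-fold lower in EM and none higher, with a median log2 ratio of -0.59. The shares over all genes measured in macrophages, 18.5% lower and 8.33% higher, are the background to this and the following lists in macrophages. For their T cell counts the background is 11.6% lower and 5.37% higher. Hif1a, the main oxygen-regulated subunit, was at 235 CPM in PBS against 182 CPM in EM (-0.37, -0.57 to -0.18), and Vhl was near equality (-0.06, -0.48 to 0.33). Egln2, another oxygen sensor, was at -0.84, and Hif1an, which hydroxylates the alpha subunits at another site, at -1.14 with an interval up to 0.01. In T cells Hif1a was at 255 and 259 CPM (0.02, -0.04 to 0.09), and 2 of 9 regulators, Epas1 and Hif3a, were lower and none higher; both are named after their values were seen.

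Other known hypoxia targets lay on both sides. Of 30 listed, 26 were measured in macrophages: 8 were at least 2-fold lower in EM and 2 higher, with a median of -0.42. Ddit4, a stress inhibitor of mTOR signalling, was at 57.3 CPM in PBS macrophages and 15.6 CPM in EM ones (-1.87, -2.61 to -1.22). Plin2, a lipid droplet coat protein, was higher in EM, at 38.9 and 80.7 CPM (1.05, 0.73 to 1.36), opposite to Hilpda. Car9, a carbonic anhydrase often used as a hypoxia marker, was at 5.68 and 9.88 CPM, and its interval included equality (-0.21 to 1.67). The second gene at least 2-fold higher was Bhlhe41, with 51 UMIs, named here after its values were seen. In T cells 6 of 29 were lower and 1 higher, with a median of -0.14.

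Glycolytic enzymes, also targets of the response, were mostly within 2-fold. Of 11, all measured, 1 was at least 2-fold lower in EM macrophages and none higher, with a median of -0.48. Gpi1 was at 299 CPM in PBS against 144 CPM in EM (-1.05, -1.28 to -0.83) and Tpi1 at 309 and 186 CPM (-0.73). Ldha was at 311 and 329 CPM (0.08, -0.07 to 0.23) and Pkm at 451 and 543 CPM (0.27, 0.15 to 0.38). T cells had none of 11 past 2-fold in either direction. In dendritic cells 7 of 11 were lower, with a median of -1.57, against 7.29% of all genes there.

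Receptors for the secreted members had ratios on both sides of equality in macrophages. Of 8, 7 were measured, with 2 lower and 2 higher in EM by at least 2-fold. Nrp2, a co-receptor for vascular endothelial growth factors, was at 59.3 CPM in PBS against 26.4 CPM in EM (-1.17, -1.73 to -0.66), and Flt1, a receptor that binds Vegfa, at 118 and 88.9 CPM (-0.41). Nrp1 was near equality (-0.08), and Ramp1, an accessory chain of calcitonin-family receptors, was at 5.30 and 16.5 CPM (1.64, 0.85 to 2.36). The other receptor higher in EM was Kdr, the main signalling receptor of Vegfa, with 7 UMIs in PBS and 33 in EM (0.452 and 27.2 CPM). The other receptor lower in EM was Calcrl, with 89 and 2 UMIs. Both are named after their values were seen. Over all cells kept, Kdr had 25 UMIs in PBS and 439 in EM. Endothelial markers, which this list does not hold, were at 116 and 45.3 CPM in the gated macrophages. Their sum includes Pecam1, which alone gave 204 CPM in EM NK cells, so it does not measure endothelial RNA. A further list of 15 held relatives of the members and genes of lipid storage, such as Pnpla2 and Plin2. Of these, 11 were measured, 2 were lower (Pnpla2 and Slc2a8) and 2 higher (Plin2 and Slc2a6). The glucose transporters are named after their values were seen. Plin2, Bnip3l and Pgf were also on the list of other hypoxia targets, so Plin2 was counted as higher in both. Pnpla2, the lipase that Hilpda inhibits, was at 118 and 48.6 CPM (-1.28, -1.67 to -0.90), and Bnip3l, the paralogue of Bnip3, at 226 and 114 CPM (-0.99). Vegfb was at 22.5 and 37.9 CPM (0.75, 0.28 to 1.20), a sign opposite to that of Vegfa.

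Genes most like the members were sought over the 15 groups of class and library with at least 50 cells. The measure was Pearson correlation with the mean standardised log2(CPM + 1) of the 8 members, among 6938 genes. Adm, close to undetected, had the same weight in this mean as each other member. Its B cell levels, 7.46 CPM in PBS and 4.33 CPM in EM, were 1 UMI each. The 5 highest were Inhba (0.86), Marchf3 (0.86), Adamtsl4 (0.84), F3 (0.82) and Clec4d (0.81). Inhba, which encodes an activin subunit, was at 39.1 CPM in PBS macrophages and 3.29 CPM in EM. F3, the coagulation tissue factor, was highest in PBS neutrophils, at 114 CPM. These points share libraries and depth, so the values describe these groups only. Among the members, Egln3 and Slc2a1 had the highest correlation over the same groups (0.81), and Hilpda and Bnip3 stood near 0 (8.3e-05). The groups include B cells, where nearly all of the 36 PBS Bnip3 UMIs came from 1 cell, and EM had 1 Bnip3 UMI. Hilpda had 1 UMI in PBS B cells and 13 in EM. The part of these counts in the value near 0 was not tested.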

How the data were processed

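The authors deposited raw UMI counts per gene and barcode, as whole numbers and not normalized, per the file headers. Per the submitters' processing notes, CASAVA 1.8, STARsolo and mm10 were used. No source used here gives the annotation or the calling of cells. A cell needed 200 genes, 500 UMIs and no more than 20% of UMIs from mitochondrial genes, which removed 573 PBS and 64 EM barcodes by the mitochondrial limit. The gate gave a cell the class with the most markers detected, at least 3 and at least 1.5 times the next class. Macrophages and microglia were gated together, and microglia needed at least 3 microglial markers and at least 0.5 times as many as macrophage markers. The rule was set after seeing the data. Cells with too few markers (684 PBS, 336 EM) or mixed markers (198 and 257) were left out, and 81 PBS and 65 EM macrophages lay near the limit of the gate. No doublet caller was run: mixed cells were left out and an alternative removed the deepest 5% of cells.

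UMIs were summed per class and library and expressed as CPM with exact Poisson intervals. Shares carry exact Clopper-Pearson intervals, and log2 ratios exact conditional binomial intervals, all at 95%. Where no UMI was found, the limit stated is that of 3 counts in the class and library. Genes with at least 20 UMIs were measured, and 2-fold was the size called. Cells were thinned to 1000 UMIs without replacement. Clusters came from scanpy 1.11.5 and leidenalg 0.10.2 (2000 variable genes, 30 components, 15 neighbours, resolution 1.0). The ratio step was tested on simulated counts. Ero1a of the lists was matched to Ero1l by RefSeq synonym. Promoters came from RefSeq on GRCm38.p6.

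The members and lists were chosen with earlier results of these data known. All 8 members are named. Lists are given by counts, with at most 4 values each, by the largest and smallest ratio in macrophages with at least 100 UMIs. For 1 list, 1 gene that this rule names is not reported here. The files were used in full for both libraries, and the alternatives are in the closing section.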

Additional observations from a re-analysis of the deposited data

Results flagged for a closer look

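Bnip3 had ratios of opposite sign in different classes of the same libraries, and this difference was not tested, since each class has 1 library per group. Its log2 ratio of EM over PBS was 0.43 in T cells, against -1.53 in macrophages, -1.005 in microglia, -1.83 in dendritic cells and -5.95 in B cells. Each of these 5 intervals excluded equality, but the microglial value was -0.12 in thinned cells, -0.18 with the stricter gate, -0.25 without the deepest 5% of cells and -0.63 without the cell richest in Bnip3. The B cell value rests on 1 PBS cell that held 35 of 36 UMIs.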

How the results depend on the processing

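No paired analysis was possible because each group has 1 library. In macrophages, 5 to 7 members were at least 2-fold lower in EM under each alternative other than the shared cluster, against 6 as reported, and all 77 single-member ratios recomputed there kept their sign. The median member ratio was -2.21 in cells thinned to 1000 UMIs, in place of -1.53. That median is the value of Ndrg1 and rests on few EM cells. Thinned EM macrophages held Ndrg1 in 1 of 164 cells with Ly6c2 and 2 of 218 without. In macrophages of the shared cluster, an alternative chosen after seeing the data, 3 members of 4 measured were lower, with a median of -3.21, and fewer members reached 20 UMIs. In T cells all 63 recomputed ratios kept their sign. Member ratios at least 2-fold lower in the other classes numbered 11 of 23, and 5 with the stricter cell filter, 4 when thinned, 6 with the stricter gate, 4 with clusters as classes and 5 without the deepest 5% of cells. They numbered 4 in cells of 1000 to 5000 UMIs and 7 without the cell richest in the member, both chosen after seeing the data. Fewer pairs were measured in each of these 7 settings (11 to 19). In dendritic cells 12 of 12 kept their sign, against 30 of 45 in NK cells, 26 of 34 in microglia and 11 of 13 in B cells. Among ratios past 2-fold as reported, those that changed sign were Vegfa in microglia (0.043, stricter cell filter), Slc2a1 in B cells (0.14, thinned) and Bnip3 in B cells (0.22, clusters as classes); the cause was not tested. Median-of-ratios scaling moved all macrophage ratios by 0.11 and left 6 members lower. Depth limits the EM macrophages, where Egln3, Ankrd37 and Hilpda rest on 12, 15 and 16 UMIs, and the EM microglia, with at most 10 UMIs of any member.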
